A study of Mus musculus with 12 samples.

Results

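The PPAR, ERR and PGC-1 regulators examined here are 10 genes that set the capacity of heart muscle to burn fatty acids. They are the coactivators Ppargc1a and Ppargc1b, the nuclear receptors Ppara and Ppard, their retinoid X receptor partners Rxra and Rxrg, the oestrogen-related receptors Esrra, Esrrb and Esrrg, and the mitochondrial DNA factor Tfam. The members were the rows of the raw count table whose Ensembl identifier carries one of these symbols in GENCODE M21, and all 10 were found among 26921 genes. RNA was sequenced from the left ventricle of 12 mice aged 16 weeks, 6 WT and 6 cmGch1 KO, 1 library per animal. Every animal carried both floxed alleles of Gch1, the gene for GTP cyclohydrolase 1, the rate-limiting enzyme of tetrahydrobiopterin synthesis. The cmGch1 KO mice also carried 1 copy of a Cre transgene under the cardiomyocyte promoter α-MHC, and the WT mice were floxed littermates with no Cre. No library from animals with Cre and intact Gch1 was analysed here, so Cre and loss of Gch1 cannot be told apart. The tissue was whole ventricle, in which cells that keep Gch1 are also read, and fewer cells of a type and less RNA per cell cannot be told apart.

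PGC-1 coactivators do not bind DNA themselves. They are recruited by PPARs, which act as dimers with a retinoid X receptor on genes of fatty acid uptake and β-oxidation, and by oestrogen-related receptors, which act on genes of the tricarboxylic acid cycle and the respiratory chain. Tfam packages mitochondrial DNA and starts its transcription, and is itself a target of this network through the factors NRF1 and GABP.

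The libraries held 19921398 to 37917806 counts, and 11225 genes passed the filter of over 3 cpm (counts scaled to a common library total) in at least 6 libraries. Gch1 averaged 10.7 ± 0.979 cpm (SD, n = 6) over the WT libraries against 5.51 ± 0.859 cpm (n = 6) over the cmGch1 KO libraries. The cmGch1 KO libraries 2 and 3 had high Xist and no reads of 4 Y-linked genes, and their mitochondrial transcripts made up 14.9% and 16.1% of counts, against 18.3% to 22.9% in the other 10. The libraries also varied in the balance of long against short transcripts, here called the length balance: the median of log2 cpm, centred on each gene's mean, over the 2239 longest of the tested genes minus that over the 2239 shortest. It ran from -0.45 in cmGch1 KO replicate 1 to 0.29 in WT replicate 6, with a mean of -0.01 ± 0.29 in WT and -0.00 ± 0.28 in cmGch1 KO (exact permutation test, two-sided, P = 0.955). Its correlation with the first principal component, which held 32.5% of the variance, was 0.967 over the 12 libraries. Since it moves with several of the members, it is given beside their correlations.

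The promoter windows of Ppargc1a, Rxra, Rxrg and Esrra are shown because these genes formed correlated pairs described further on and because their windows lie outside annotated exons but for a few bases. Each is the 150 bases before a start site, taken from RefSeq on GRCm38.p6 and written 5′ to 3′ on the strand of the gene, with searched motifs in capitals. RefSeq windows were matched for 9 of the 10 members, with 15 starts in all.
Ppargc1a: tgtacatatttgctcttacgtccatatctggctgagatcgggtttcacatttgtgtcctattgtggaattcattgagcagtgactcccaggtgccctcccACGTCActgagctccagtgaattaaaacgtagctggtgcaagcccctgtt
Rxra, first start: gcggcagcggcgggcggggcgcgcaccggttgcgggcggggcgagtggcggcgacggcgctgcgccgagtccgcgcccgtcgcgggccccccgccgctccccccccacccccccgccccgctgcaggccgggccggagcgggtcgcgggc
Rxra, second start: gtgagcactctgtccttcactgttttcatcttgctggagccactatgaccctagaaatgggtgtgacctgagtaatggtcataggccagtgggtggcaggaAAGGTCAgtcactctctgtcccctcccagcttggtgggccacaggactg
Rxrg, second start: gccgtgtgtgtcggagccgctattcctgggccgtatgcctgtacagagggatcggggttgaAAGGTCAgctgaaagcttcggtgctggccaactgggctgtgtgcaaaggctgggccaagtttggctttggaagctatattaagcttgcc
Esrra: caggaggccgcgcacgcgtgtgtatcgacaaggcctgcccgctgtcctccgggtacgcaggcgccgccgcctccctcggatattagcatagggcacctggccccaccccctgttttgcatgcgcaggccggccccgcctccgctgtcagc
They lie at chr5:51567726-51567875 on the minus strand for Ppargc1a, chr2:27677051-27677200 and chr2:27709142-27709291 on the plus strand for Rxra, chr1:167618115-167618264 on the plus strand for Rxrg, and chr19:6921809-6921958 on the minus strand for Esrra. GENCODE exons cover 1 base of the Ppargc1a window and 5 of the Esrra window. The transcript that begins at the second Rxrg start was not matched in GENCODE M21. The window of the first Rxrg start also lies outside annotated exons but is not printed, and none of the searched motifs was found in it.

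The 5 motifs, each searched on both strands, were looked for in the member windows and in all 32851 windows of the same length. The nuclear receptor motif AAGGTCA, which ERRs bind as monomers, occurred in 2.31% of all windows and, among the members, in those of the second starts of Rxra and Rxrg, where it begins 49 and 89 bases before the start. The cyclic AMP response motif TGACGT occurred in 5.15% of all windows and, on the opposite strand, in that of Ppargc1a, 50 bases before the start. Outside the printed windows, the NRF1-type core CGCATGCG (1.29% of all windows) lay 30 bases before the Ppara start, the ETS-type core CCGGAAG (5.53%) lay 47 bases before the Tfam start, and the MEF2-type core TATTTATA (0.922%) lay 21 bases before the most upstream Esrrg start. GENCODE exons of the same gene cover all 150 bases of the Tfam window, so its match lies in an annotated exon. They cover 88 bases of the Ppara window and 44 of this Esrrg window. No match overlapped another, and none of the 5 motifs was found in the windows of Ppard, Esrrb or Esrra. The GC content was 88.7% at the first Rxra start, 70.7% at Esrra and 48.0% at Ppargc1a, against a median of 54.0% over all windows.

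All 10 regulators were expressed and tested. With counts divided by the length of each gene's merged exons, the order of the WT mean levels was led by Esrra, at 53.9 ± 6.30 cpm per kb (SD, n = 6), and Rxrg, at 32.1 ± 3.82 cpm per kb. Rxra followed at 15.7 ± 1.30, Ppargc1a at 14.5 ± 3.16, Ppara at 10.8 ± 2.36 and Tfam at 10.6 ± 0.935 cpm per kb. Esrrg stood at 8.27 ± 1.14, Esrrb at 6.23 ± 0.424, Ppard at 4.81 ± 0.426 and Ppargc1b at 4.67 ± 1.09 cpm per kb. Esrra was separate from Rxrg, and Rxrg from Rxra, in every WT library, and Esrrb was likewise separate from Ppard. The other neighbours in this order overlapped in their WT ranges. Esrra was therefore the most abundant member in WT ventricle per length, 6.52 times the level of Esrrg and 8.66 times that of Esrrb.

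The first question was whether the transcripts of these regulators differed in the ventricle that lacks Gch1 in its cardiomyocytes. Of the 10 members, 9 were lower and 1 was higher in cmGch1 KO, but with scaling by library size alone 5 were lower and 5 higher, since Ppard, Esrrb, Esrrg and Tfam crossed 0. The median log2 fold change was -0.10 against -0.01 over all genes tested, and with library size alone -0.02 against 0.07. None passed an FDR of 0.05 in the edgeR quasi-likelihood test or in the DESeq2 Wald test, where edgeR called 1.12% of all tested genes. At an unadjusted P under 0.05, 2 members were lower, Rxra and Rxrg, against 4.51% of all genes, and none was higher. The count was 1 with DESeq2 size factors and 0 with library size alone, where Rxra had -0.09 and Rxrg -0.15. It ran from 0 to 3 when 1 library was left out, with 0 where the library was WT replicate 3 or 5 or cmGch1 KO replicate 2, 3 or 4, and 3 where it was WT replicate 1 or cmGch1 KO replicate 6. Without cmGch1 KO libraries 2 and 3 together, the pair with high Xist, no member was lower or higher at that level, with log2 fold changes of -0.14 for Rxra and -0.19 for Rxrg. The genotypes overlapped for every member, while 1.87% of all genes did not overlap.

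**Figure D1:**
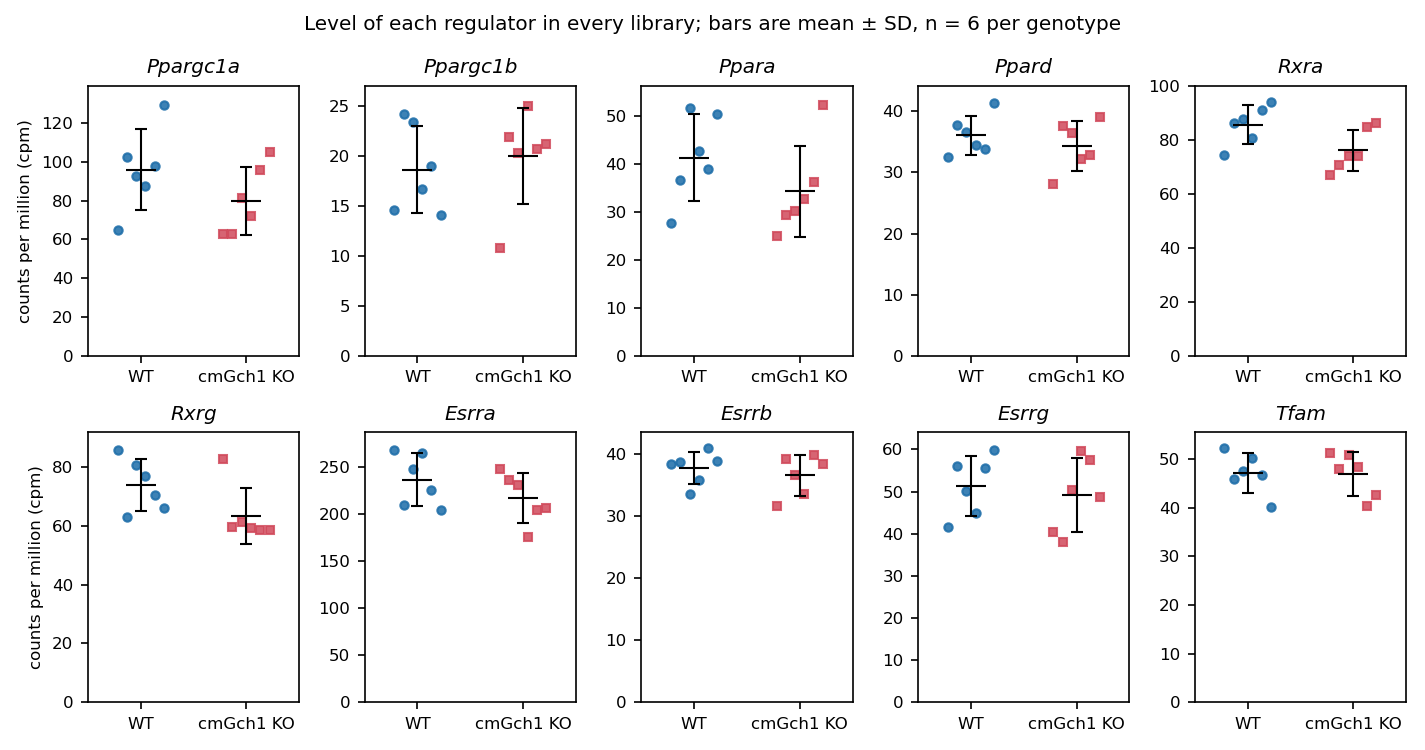
Level of each regulator, in cpm on an axis from 0, in every library of WT (circles) and cmGch1 KO (squares), with mean and SD bars over 6 animals. The 2 genotypes overlap in all 10 panels, and 1 cmGch1 KO library stands apart from the other 5 in Rxrg (82.6 against 58.6 to 61.2 cpm).

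Ppargc1a encodes PGC-1α, the coactivator induced by cold, fasting and exercise, and lies at chr5:51454250-51567726 on the minus strand. In WT its level ran from 65.1 to 129 cpm with a median of 95.3, and in cmGch1 KO from 62.8 to 105 cpm with a median of 76.6. The 2 lowest cmGch1 KO libraries, replicates 1 and 2, lay at 62.8 cpm, just under the lowest WT library. The means of WT and cmGch1 KO were 95.8 ± 20.9 and 79.9 ± 17.5 cpm, a log2 fold change of -0.26 (SE 0.16, 95% interval -0.60 to 0.08; edgeR adjusted P = 0.606). As a change in percent, the interval runs from -34.2% to 5.91%. The log2 fold change was -0.16 without WT replicate 6, the highest library, and -0.36 without cmGch1 KO replicate 6. Ppargc1b, which encodes the related coactivator PGC-1β and contains the microRNA gene Mir378a, was the only member with a higher mean in cmGch1 KO. It ran from 14.1 to 24.2 cpm in WT, with a median of 17.8, and from 10.8 to 25.0 cpm in cmGch1 KO, with a median of 21.0. The cmGch1 KO libraries held both the lowest and the highest value, and the log2 fold change was 0.10 (SE 0.18, 95% interval -0.30 to 0.50; edgeR adjusted P = 0.917). Leaving out 1 library moved it between 0.02 (without cmGch1 KO replicate 4) and 0.23 (without cmGch1 KO replicate 1, which held the lowest value), and it was 0.03 and 0.04 without WT replicates 6 and 1, and 0.19 and 0.17 without WT replicates 2 and 3.

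Ppara, the fatty acid receptor that drives β-oxidation genes in heart and liver (chr15:85734983-85802819, plus strand), ran from 27.6 to 51.8 cpm in WT, with a median of 40.9, and from 25.0 to 52.3 cpm in cmGch1 KO, with a median of 31.5. The highest of all 12 libraries was a cmGch1 KO library, replicate 6, and the other 5 of that genotype lay at or below 36.3 cpm. The log2 fold change was -0.26 (SE 0.18, 95% interval -0.65 to 0.12; edgeR adjusted P = 0.656), and it was -0.43 without that library. Ppard, the more widely expressed receptor of the same family (chr17:28232700-28301474, plus strand), varied less. It lay between 32.6 and 41.4 cpm in WT (median 35.5) and between 28.1 and 39.1 cpm in cmGch1 KO (median 34.6). Its log2 fold change was -0.07 (SE 0.09, 95% interval -0.26 to 0.12; edgeR adjusted P = 0.858). It was -0.02 without cmGch1 KO replicate 1, -0.03 without WT replicate 6 and -0.11 without cmGch1 KO replicate 6.

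The retinoid X receptors had the lowest unadjusted P-values of the set. Rxra, an obligate dimer partner of the PPARs (chr2:27676440-27762957, plus strand), ran from 74.4 to 93.9 cpm in WT, with a median of 87.1. Its cmGch1 KO range was 67.2 to 86.3 cpm, with a median of 74.0. In cmGch1 KO, 4 of the 6 libraries lay below every WT library, and the other 2 lay within the WT range. The means were 85.7 ± 7.12 and 76.1 ± 7.69 cpm, a log2 fold change of -0.17 (SE 0.08, 95% interval -0.34 to -0.00; edgeR unadjusted P = 0.0495, adjusted P = 0.433). An exact permutation test of this gene over the libraries gave P = 0.0498 (two-sided).

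Rxrg, the muscle-enriched retinoid X receptor (chr1:167598384-167639623, plus strand), ran from 63.0 to 85.6 cpm in WT, with a median of 73.7. In cmGch1 KO, 5 libraries lay between 58.6 and 61.2 cpm, all below the lowest WT library, and replicate 1 stood at 82.6 cpm. The means were 73.8 ± 8.78 and 63.3 ± 9.48 cpm, a log2 fold change of -0.22 (SE 0.10, 95% interval -0.44 to -0.00; edgeR unadjusted P = 0.0477, adjusted P = 0.428). The exact permutation test gave P = 0.0823, and without cmGch1 KO replicate 1 the log2 fold change was -0.31 (edgeR adjusted P = 0.0699). Leaving out 1 library at a time gave log2 fold changes of -0.31 to -0.17 for Rxrg and -0.21 to -0.14 for Rxra. With the length balance added to the edgeR fit, a setting chosen after the data were seen, Rxra and Rxrg passed the threshold at log2 fold changes of -0.18 and -0.22 (adjusted P = 0.0391 and 0.0382), as they did with 1 surrogate variable (adjusted P = 0.0383 and 0.0374). Those fits called 633 and 636 genes, against 126.

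The 3 oestrogen-related receptors are orphan receptors that share their binding motif. Esrra, which encodes ERRα (chr19:6910977-6921813, minus strand), ran from 204 to 268 cpm in WT, with a median of 237, and from 175 to 248 cpm in cmGch1 KO, with a median of 218. Replicate 4 of cmGch1 KO lay below the rest, and the log2 fold change was -0.13 (SE 0.10, 95% interval -0.33 to 0.08; edgeR adjusted P = 0.712), or -0.07 without that library. The gene overlaps Trmt112 on the opposite strand, and the strand setting of the counting is not given in the sources used here, so a share of its reads may belong to that gene. Esrrb, best known from pluripotent cells (chr12:86361117-86521628, plus strand), had ranges of 33.6 to 40.9 cpm in WT (median 38.5) and 31.6 to 39.9 cpm in cmGch1 KO (median 37.5). Esrrg, which encodes ERRγ, the member enriched in oxidative muscle (chr1:187608791-188214885, plus strand), ran from 41.5 to 59.9 cpm in WT (median 52.8) and from 38.0 to 59.6 cpm in cmGch1 KO (median 49.5). The ranges of both genes largely coincided between genotypes. Their log2 fold changes were -0.05 (95% interval -0.21 to 0.12; edgeR adjusted P = 0.907) and -0.06 (95% interval -0.33 to 0.20; edgeR adjusted P = 0.921). Leaving out 1 library moved them from -0.08 (without WT replicate 3) to -0.01 (without cmGch1 KO replicate 1) for Esrrb, and from -0.13 (without cmGch1 KO replicate 4) to -0.01 (without cmGch1 KO replicate 2) for Esrrg.

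Tfam (chr10:71225464-71238280, minus strand) had the smallest difference of the set. It ran from 40.1 to 52.2 cpm in WT, with a median of 47.1, and from 40.3 to 51.3 cpm in cmGch1 KO, with a median of 48.1. The log2 fold change was -0.01 (SE 0.08), and its 95% interval of -0.18 to 0.17 corresponds to a change of -11.8% to 12.2% (edgeR adjusted P = 0.990). It lay between -0.05 (without WT replicate 6) and 0.03 (without cmGch1 KO replicate 5) when 1 library was left out.

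**Figure D2:**
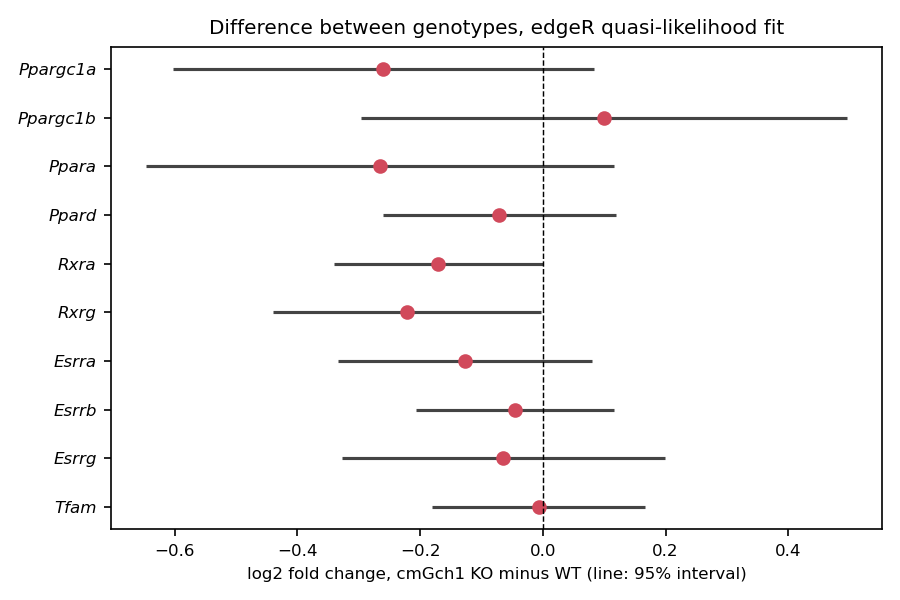
Log2 fold change of each regulator in cmGch1 KO over WT from the edgeR fit (points), with 95% intervals (lines). Of the 10 points, 9 lie left of 0, from -0.26 in Ppargc1a and Ppara to -0.01 in Tfam (5 of 10 with scaling by library size alone), and the intervals of Rxra and Rxrg alone end below 0, at -0.00.

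The second question was how the regulators varied together from animal to animal. Pearson's r of log2 cpm was computed over the 12 libraries for all 45 pairs, with P-values from 100000 permutations adjusted over the 45. In all, 6 pairs passed an adjusted P of 0.05, 4 positive and 2 negative, and the same 6 passed by Spearman's rho. Each kept its sign in both genotypes taken alone. The count was 1 without cmGch1 KO replicate 1 (Ppargc1a with Rxra), 3 without WT replicate 1 and 10 without cmGch1 KO replicate 2. Among all pairs of tested genes, 6.92% had an absolute r as large as the smallest of the 6, and the median absolute r was 0.48 over the member pairs and 0.34 over all pairs. Genes measured in the same libraries share their depth and composition.

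**Figure D3:**
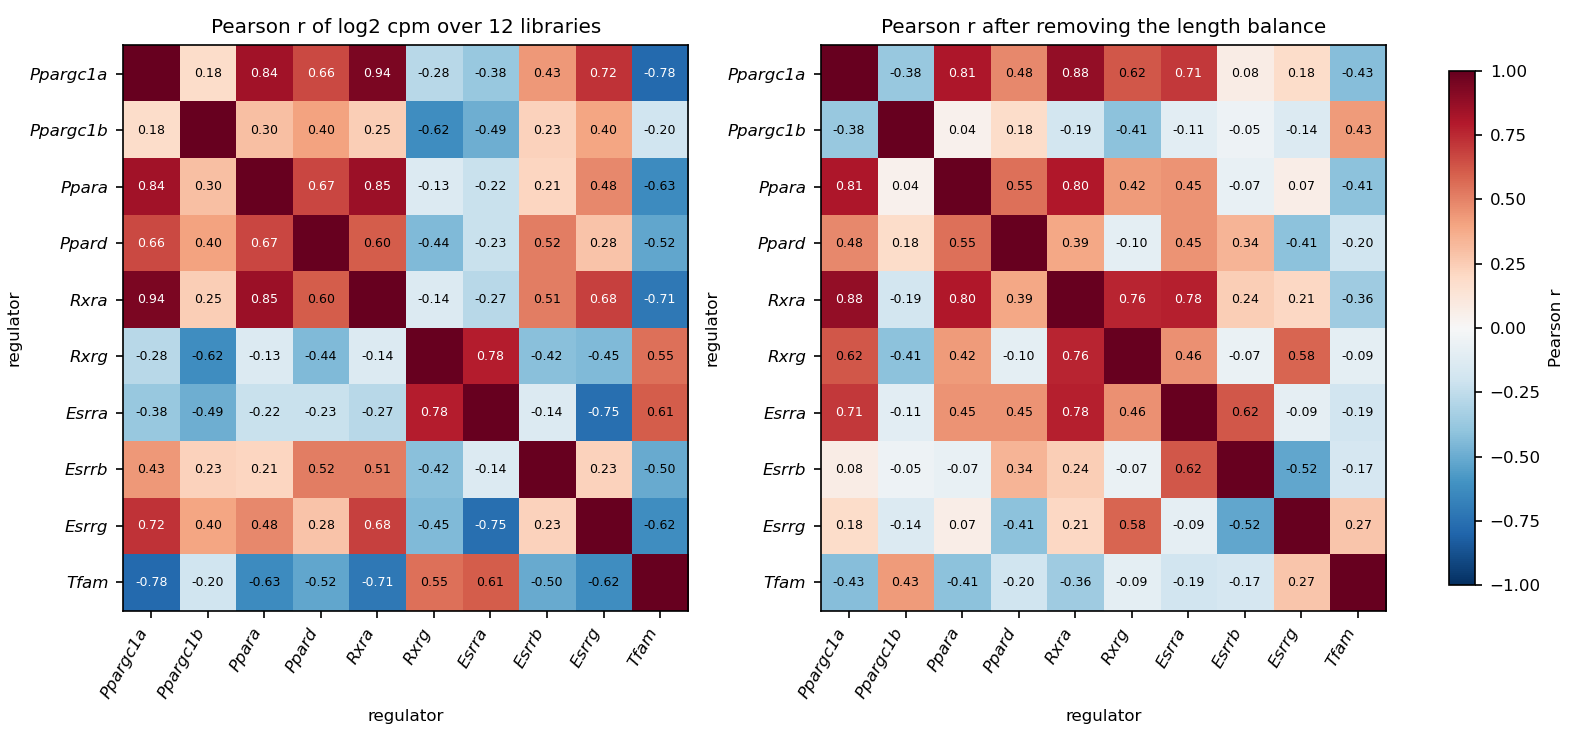
Pearson's r between every pair of the 10 regulators over 12 libraries, for log2 cpm (left) and after the length balance was regressed out of each gene (right), from -1 (blue) to 1 (red). Ppargc1a, Ppara and Rxra form a block of 0.84 to 0.94 on the left that stands at 0.80 to 0.88 on the right, whereas Esrra and Esrrg go from -0.75 to -0.09.

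The strongest pairs joined the coactivator gene Ppargc1a to Ppara and Rxra. Ppargc1a and Rxra had r = 0.94 (permutation adjusted P = 0.0009; rho = 0.89), at 0.93 within the 6 WT and 0.96 within the 6 cmGch1 KO libraries. Without the 2 libraries farthest from the median of Ppargc1a, r was 0.90. Ppara and Rxra had r = 0.85 (permutation adjusted P = 0.0112; rho = 0.80), at 0.74 within WT, 0.91 within cmGch1 KO and 0.83 without the 2 farthest libraries. Ppargc1a and Ppara had r = 0.84 (permutation adjusted P = 0.0112; rho = 0.82), at 0.74 within WT, 0.88 within cmGch1 KO and 0.77 without the 2 farthest libraries. All 3 pairs were thus positive in both genotypes. Of these 3 pairs, only Ppargc1a and Rxra passed adjustment within the 6 WT libraries (exact permutation adjusted P = 0.0357). The values were 0.227 for Ppargc1a and Ppara and 0.214 for Ppara and Rxra. Of all 45 member pairs, 7 passed within WT and none within cmGch1 KO. The others in WT were Ppargc1a with Esrra (r = -0.86 within WT) and Esrrg (0.93), and Rxra with Esrrg (0.94). They also included Esrra with Esrrg (-0.96) and Tfam (0.89), and Esrrg with Tfam (-0.90). With the length balance regressed out over the 12 libraries, these stood in the same order at 0.71, 0.18, 0.21, -0.09, -0.19 and 0.27. None of these passed. With it regressed out, r was 0.88 for Ppargc1a and Rxra, 0.80 for Ppara and Rxra, and 0.81 for Ppargc1a and Ppara (permutation adjusted P = 0.0081, 0.0208 and 0.0127). Ppargc1b did not join them: its r with Ppargc1a was 0.18 (permutation adjusted P = 0.608; rho = 0.06), and none of its 9 pairs passed.

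Rxrg, in contrast, paired with Esrra, at r = 0.78 (permutation adjusted P = 0.0259; rho = 0.80), with 0.93 within WT, 0.60 within cmGch1 KO and 0.69 without the 2 farthest libraries. Its r with the other retinoid X receptor, Rxra, was -0.14 over the 12 libraries (permutation adjusted P = 0.672; rho = 0.03), but -0.71 within WT and -0.65 within cmGch1 KO. Without cmGch1 KO replicate 1, the r of Rxra and Rxrg over the other 11 was 0.11. With the length balance regressed out, the sign turned, to 0.76 for Rxra and Rxrg (permutation adjusted P = 0.0370), and Rxra and Esrra went from -0.27 to 0.78 (permutation adjusted P = 0.0127). Rxrg and Esrra fell to 0.46 (permutation adjusted P = 0.391).

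The 2 negative pairs were Ppargc1a with Tfam and Esrra with Esrrg. Ppargc1a and Tfam had r = -0.78 (permutation adjusted P = 0.0259; rho = -0.83), at -0.94 within WT, -0.79 within cmGch1 KO and -0.80 without the 2 farthest libraries. Esrra and Esrrg, which compete for the same binding motif, had r = -0.75 (permutation adjusted P = 0.0394; rho = -0.81), at -0.96 within WT, -0.84 within cmGch1 KO and -0.67 without the 2 farthest libraries. With the length balance regressed out, neither pair passed, at -0.43 and -0.09 (permutation adjusted P = 0.391 and 0.890).

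**Figure D4:**
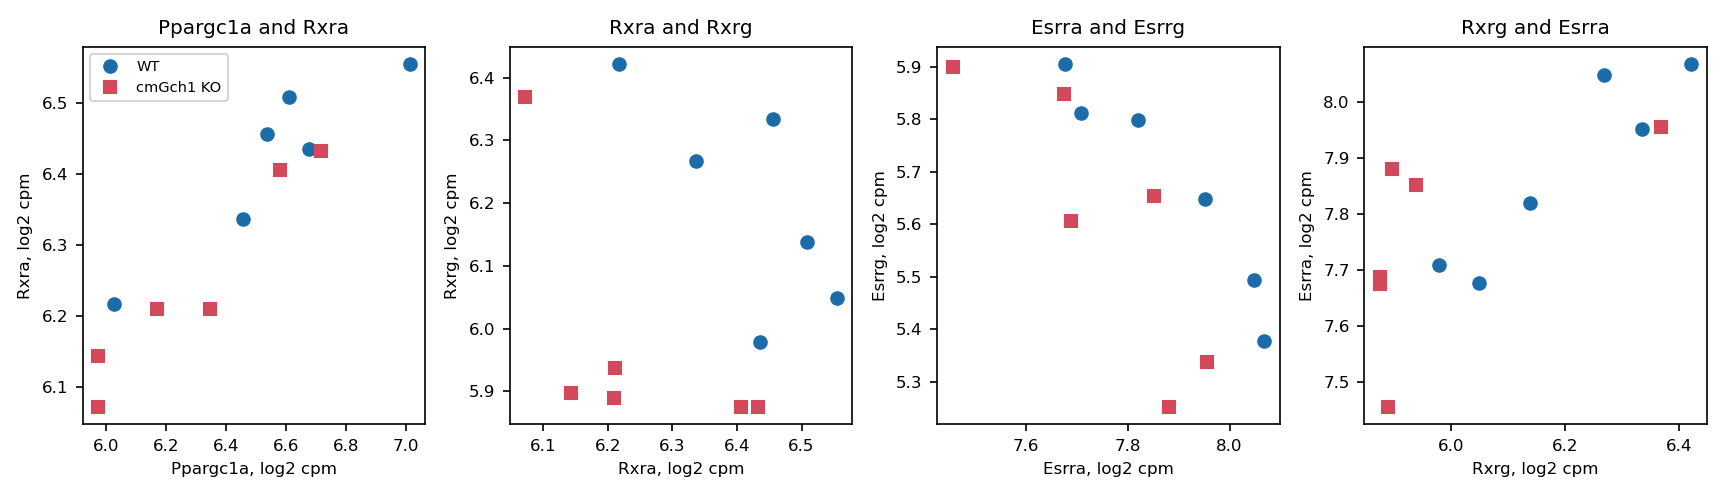
Log2 cpm of 4 pairs of regulators, 1 point per library, for WT (circles) and cmGch1 KO (squares). Ppargc1a and Rxra rise along 1 line in both genotypes (r = 0.94), Esrra and Esrrg fall (r = -0.75), Rxrg and Esrra rise (r = 0.78), and Rxra and Rxrg fall within WT (r = -0.71) while 5 cmGch1 KO libraries lie at nearly 1 level of Rxrg.

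The length balance itself moved with several members. Its r was 0.87 with Esrrg, 0.76 with Ppargc1a, -0.83 with Esrra and -0.80 with Tfam (permutation adjusted P = 0.0102, 0.0417, 0.0130 and 0.0177 over 30 relations; rho = 0.83, 0.83, -0.85 and -0.91). Without the 2 libraries farthest from its median, these were 0.80, 0.60, -0.80 and -0.73. It reached 0.70 with Rxra and -0.73 with Rxrg, which did not pass (permutation adjusted P = 0.0737 and 0.0591; rho = 0.67 and -0.64). Of all tested genes, 23.1% had an absolute r of 0.8 or more with it, as did 3 of the 10 members. The share of mitochondrial transcripts and the total counts gave no relation with a member that passed. The part of the length balance in the pairs was not tested beyond the values given.

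The targets of these regulators were examined as lists of known genes. No gene of these pathway lists was called at an FDR of 0.05 by the main edgeR fit. The DESeq2 Wald test called 4 of them (Acot1, Slc27a1, Etfdh and Perm1, all lower), and 373 of all 11225 genes tested. The edgeR fits with 1 surrogate variable and with the length balance, which called Rxra and Rxrg, each called 4 PPAR targets (Cpt2, Fabp3, Acot1 and Slc27a1) and 7 ERR and PGC-1 targets (Ndufb5, Uqcrc1, Ogdh, Ldhb, Etfa, Etfb and Etfdh), all lower. They called 2 and 5 co-regulators, among them Perm1 and Ep300 in both, and no gene of the other pathway lists. Over all 11225 genes tested they called 636 and 633. Of 28 PPAR target genes, which serve fatty acid uptake, activation and β-oxidation, 23 were lower and 5 higher in cmGch1 KO, with a median log2 fold change of -0.14 and 8 lower at an unadjusted P under 0.05. With scaling by library size alone 20 were lower, 3 of them at that level, and without the pair of libraries with high Xist 23 were lower, also 3 at that level. Over all genes tested, 5984 of 11225 were lower, with a median of -0.01. The share of all genes that was lower at an unadjusted P under 0.05 was 4.51%. Acot1, a cytosolic acyl-CoA thioesterase, averaged 21.7 ± 4.33 cpm over WT and 13.1 ± 3.20 cpm over cmGch1 KO libraries, a log2 fold change of -0.73 (SE 0.17; edgeR adjusted P = 0.0644). The fatty acid transporter Slc27a1 had -0.31 (SE 0.09, adjusted P = 0.132) and Cpt2, the inner carnitine palmitoyltransferase, -0.19 (SE 0.06, adjusted P = 0.211). The other 5 were the β-oxidation genes Decr1, Acadm, Acaa2 and Acadvl and the carnitine carrier Slc25a20, between -0.26 and -0.17.

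Of 22 ERR and PGC-1 target genes of the tricarboxylic acid cycle, electron transfer and respiratory chain, 19 were lower and 3 higher, with a median of -0.15. At an unadjusted P under 0.05, 5 were lower (background 4.51% of all genes). With library size alone 17 were lower, none at that level, and without the pair with high Xist 20 were lower, 2 at that level. These 5 were Etfdh at -0.19, Etfa at -0.23, Ogdh at -0.20, Ldhb at -0.17 and Uqcrc1 at -0.20 (edgeR adjusted P = 0.205 to 0.366). Etfa and Etfdh pass electrons from fatty acid oxidation to ubiquinone, and Ogdh is a subunit of the 2-oxoglutarate dehydrogenase complex. Among 16 co-regulators, 12 were lower (10 with library size alone) with a median of -0.15, and Perm1, a muscle regulator induced by PGC-1 and ERR, stood at 348 ± 31.8 cpm in cmGch1 KO and 410 ± 23.9 cpm in WT (log2 fold change -0.23, SE 0.07, edgeR adjusted P = 0.160). Lpin1 and Sirt1 had -0.22 and -0.23 (adjusted P = 0.454 and 0.540).

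Among 18 other transcription factors, 15 were lower (10 with library size alone) with a median of -0.10. Klf15, a regulator of cardiac lipid use, had the lowest P, with averages of 62.8 ± 14.4 cpm over WT and 42.8 ± 14.4 cpm over cmGch1 KO libraries (log2 fold change -0.55, SE 0.20, edgeR adjusted P = 0.256). The clock-linked receptors Nr1d2 and Rora had -0.38 and -0.26 (adjusted P = 0.495 and 0.502). Of 13 nuclear genes that copy or express mitochondrial DNA, 9 were lower, also with library size alone, with a median of -0.11. Mgme1, a mitochondrial exonuclease, averaged 24.1 ± 1.03 cpm over WT and 21.0 ± 1.55 cpm over cmGch1 KO libraries with no overlap of the libraries (log2 fold change -0.20, edgeR adjusted P = 0.219). Tfb2m and Polrmt, which transcribe mitochondrial DNA with Tfam, had -0.16 and -0.13 (adjusted P = 0.350 and 0.491). Of the 13 mRNAs encoded by mitochondrial DNA, 9 were lower (7 with library size alone or without the pair with high Xist) with a median of -0.11 and none had an unadjusted P under 0.05. The lowest P-values among them were those of mt-Co1 at -0.27, mt-Nd1 at -0.17 and mt-Cytb at -0.15 (adjusted P = 0.524 to 0.799).

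Cardiomyocyte markers were mostly lower as well. The summed level of the 8 listed (Myh6, Tnnt2, Actc1 and others) did not overlap between genotypes. Of all genes tested, each taken singly, 1.87% did not overlap. It lay between 70019 and 75638 cpm in WT and between 63792 and 66614 cpm in cmGch1 KO. Of the 8, 7 were lower, and Actc1 was higher (log2 fold change 0.10). None passed an FDR of 0.05 in the main edgeR fit or DESeq2, or an unadjusted P of 0.05 in the main edgeR fit. With 1 surrogate variable and with the length balance, edgeR called Mb, and 4 of the 8 were lower at an unadjusted P under 0.05. All 6 macrophage markers were higher, 5 of them at an unadjusted P under 0.05 (background 7.01% of all genes), with summed levels of 188 to 305 cpm in WT and 242 to 360 cpm in cmGch1 KO. The 6 fibroblast markers were also all higher, 2 of them at that level (Col3a1 at a log2 fold change of 0.44 and Tcf21 at 0.38), and summed to 704 to 919 cpm in WT and 777 to 986 cpm in cmGch1 KO. The 5 red blood cell markers were all lower with a median of -0.39, none at that level, and summed to 393 to 1153 cpm in WT and 431 to 926 cpm in cmGch1 KO. The counts of higher and lower genes in these 4 marker lists were the same with library size alone. Without the pair of libraries with high Xist, all 6 macrophage and all 6 fibroblast markers were still higher. At an unadjusted P under 0.05 there were then 3 macrophage markers and 1 fibroblast marker. The marker genes called at an FDR of 0.05 in the main edgeR fit were Acta2, a smooth muscle actin (log2 fold change 0.66, edgeR adjusted P = 0.00672), and Nppa, the atrial natriuretic peptide gene (1.53, adjusted P = 0.0240). Both were higher, and neither was called without the pair of libraries with high Xist. Of the 6 smooth muscle and pericyte markers, 4 were lower and 2 higher (2 and 4 with library size alone). Of the 4 atrial markers tested, 1 was lower and 3 were higher. The fits with 1 surrogate variable and with the length balance also called Tcf21 and the macrophage marker C1qa, both higher. The DESeq2 Wald test also called Col3a1, higher. Nppa was also not called without any 1 of WT replicates 2, 3 and 5 and cmGch1 KO replicates 2, 3 and 4. The 6 adipocyte markers, among them Adipoq and Plin1, summed to at most 3.50 cpm in any library. The part of these shifts in the members' and targets' values was not tested.

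The mean level of each list was then set against each regulator over the 12 libraries, 60 relations in all, a comparison chosen after the data were seen. The ERR and PGC-1 target mean rose with Rxrg at r = 0.92 and with Esrra at r = 0.91 (permutation adjusted P = 0.0018 for both; rho = 0.87 and 0.91). Within WT these were 0.87 and 0.95, within cmGch1 KO 0.89 and 0.87, and without the 2 farthest libraries 0.88 and 0.88. With the length balance regressed out they stood at 0.81 and 0.72, and the list mean itself had r = -0.81 with the length balance. Ppargc1a had r = -0.30 with the same target mean (permutation adjusted P = 0.622; rho = -0.24), -0.79 within WT and -0.59 within cmGch1 KO, and 0.82 with the length balance regressed out. Ppara had r = 0.14 with the PPAR target mean (permutation adjusted P = 0.901; rho = 0.29), and no regulator had a relation with that list that passed.

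**Figure D5:**
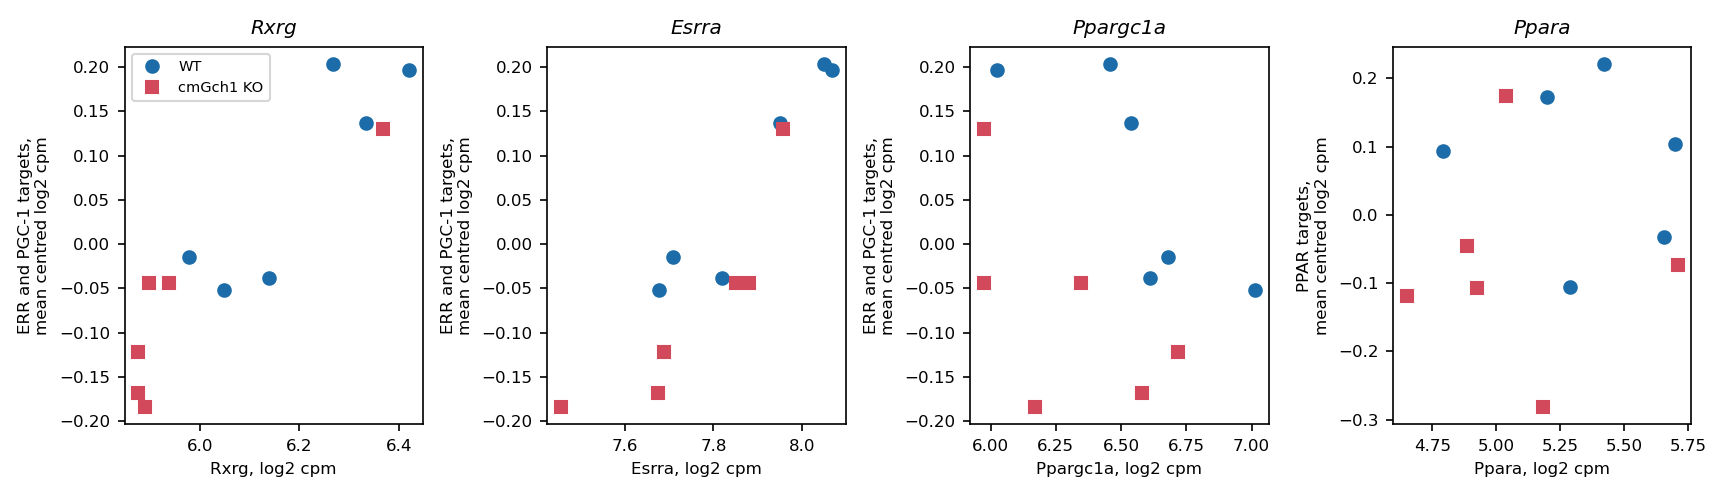
Mean centred log2 cpm of the ERR and PGC-1 targets (22 genes) against Rxrg, Esrra and Ppargc1a, and of the PPAR targets (28 genes) against Ppara, in log2 cpm, 1 point per library (circles WT, squares cmGch1 KO). The first 2 panels rise (r = 0.92 and 0.91), and the last 2 show no relation that passed (r = -0.30 and 0.14).

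The co-regulator mean rose with Ppargc1a at r = 0.91 and with Rxra at r = 0.89 (permutation adjusted P = 0.0018 and 0.0030; rho = 0.93 and 0.86), at 0.88 and 0.82 without the 2 farthest libraries. It stood at 0.83 with Esrrg and -0.80 with Tfam (permutation adjusted P = 0.0158 and 0.0204; rho = 0.78 and -0.88), at 0.76 and -0.81 without the 2 farthest libraries. With the length balance regressed out, the first pair of values was 0.84 and 0.90 and the second 0.10 and -0.23. The mean of the other transcription factors rose with Rxra, Ppara and Ppargc1a at 0.76, 0.74 and 0.73 (permutation adjusted P = 0.0232, 0.0321 and 0.0411; rho = 0.78, 0.83 and 0.72), at 0.70, 0.75 and 0.59 without the 2 farthest libraries and 0.69, 0.66 and 0.65 with the length balance regressed out. The mean of the mitochondrial DNA factors rose with Rxrg at 0.77 (permutation adjusted P = 0.0207; rho = 0.84), at 0.83 within WT, 0.53 within cmGch1 KO, 0.74 without the 2 farthest libraries and 0.59 with the length balance regressed out. Tfam had r = -0.04 with the mean of the 13 mitochondrially encoded mRNAs (permutation adjusted P = 0.986; rho = -0.15).

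The genes closest in pattern to each regulator were found by Pearson's r of log2 cpm centred on the genotype means, over 12 libraries and all tested genes outside the set, and are given as a description. Rxrg lay closest to Ldhb, the heart-type lactate dehydrogenase subunit (r = 0.98), and Rxra to Hk2, a hexokinase (r = 0.98). Ppargc1a had Xpo1 and Gigyf2 among its closest (0.98 and 0.97), and Ppara lay closest to Klf3, Wbp1l and Slc20a1 (0.97 to 0.96). Esrra lay closest to Med29, Mrpl54 and Nedd8 (0.99 to 0.98), and Esrrg had Alkbh8 and Tmx4 among its closest (both 0.97). Tfam lay closest to Ebag9, Gm26795 and Psmd13 (0.95 to 0.94). Ppargc1b had Galnt7 among its closest (0.92). Ppard lay closest to Furin, Slc39a14 and Gas2l1 (0.97 to 0.93), and Esrrb to Mcam, Fbxw11 and Slfn3 (0.92 to 0.91). The next 2 for Rxra were Atxn7 and Rbm6 (both 0.98), and for Rxrg Eef1akmt1 and Commd9 (0.98 and 0.97).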

How the data were processed

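RNA from the left ventricle of 6 WT and 6 cmGch1 KO mice was prepared as stranded paired-end libraries and sequenced on a NovaSeq6000 over more than 1 flow cell unit, with no unit given per library in the sources used here, so no batch could be examined. Per the labels and methods, the authors aligned reads with HISAT2 to GRCm38 and counted them per gene with featureCounts; the strand setting and annotation release are not given in the sources used here. The authors deposited raw counts, used here, and normalized values on a log2 scale, used as an alternative. No column of authors' comparisons was used.

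Symbols came from GENCODE M21 by Ensembl identifier (98.7% matched). Genes over 3 cpm in at least 6 libraries (11225) were fitted with edgeR 4.0.16 in R 4.3.3, with TMM scaling, the quasi-likelihood F-test and Benjamini-Hochberg adjustment over all tested genes. Levels are cpm after TMM scaling; log2 cpm used a prior count of 2. Exact permutation tests used all 924 ways to assign the genotypes. Pair correlations used 100000 permutations in numpy 2.4.6, whose smallest P is 1e-05. The number of counts limits the precision of low genes; members had 263 to 9482 counts per library. Scripts were tested on simulated data. Alternatives used DESeq2 1.42.0, sva 3.50.0 and limma 3.58.1.

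Groups came from the labels. Each library came from 1 animal. The members and lists were chosen with earlier results of these data known. Named genes are all members, the genes of each pathway list (not the cell type marker lists) past the threshold and its 3 lowest P-values, and the 3 genes nearest each member, of which 4 are not reported here; other names were chosen after their values were seen. The length balance was chosen after the data were seen. Of the 11195 tested genes with a length, its 2239 longest had at least 7886 exon bases and its 2239 shortest at most 2519.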

Additional observations from a re-analysis of the deposited data

Results flagged for a closer look

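Among the 20 groups of 6 values (10 regulators in 2 genotypes), 2 held a library far from the other 5 by Dixon's test at the 95% level, which flags about 1 group in 20 by chance. Both were in cmGch1 KO replicate 1, where Ppargc1b was lowest at 10.8 cpm (the other 5 at 20.3 to 25.0 cpm) and Rxrg was highest at 82.6 cpm (the other 5 at 58.6 to 61.2 cpm). The same library had the lowest length balance of the 12, at -0.45. Whether these go together was not tested.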

How the results depend on the processing

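No regulator was called in the edgeR fit with the deposited counts. Of the alternatives run, 2 changed that: with 1 surrogate variable 2 members passed, Rxra at -0.17 and Rxrg at -0.22, and with the length balance as covariate, added after the data were seen, the same 2 passed at -0.18 and -0.22. The direction turned for Ppard (0.0093), Esrrb (0.033), Esrrg (0.0094) and Tfam (0.070) with library size alone, which moved the median of all genes to 0.07, and for Esrrg with sex-linked expression as covariate (0.0029) and without both libraries with high Xist (0.0041). Leaving out 1 library at a time gave -0.049 to 0.032 for Tfam, and turned no other member. The cause of these shifts was not tested. Genes called over the whole table numbered 50 lower and 76 higher; these were 155 and 218 with the DESeq2 Wald test, 24 and 38 with sex-linked expression as covariate, 18 and 16 without both libraries with high Xist, 331 and 305 with 1 surrogate variable, 328 and 305 with the length balance as covariate, and 28 to 96 and 44 to 111 when 1 library was left out. With library size alone 116 were higher. The correlated member pairs numbered 6, and 1 to 10 when 1 library was left out. Replicate numbers are shared between genotypes. The correlation of deviations between same-numbered libraries was 0.68, 0.40 and 0.51 for replicates 1, 5 and 6. It lay between -0.13 and -0.08 for replicates 2, 3 and 4. Of 12 libraries, 5 correlated best with their own number. The methods name no block, and the main fit did not take the numbers as pairs. Whether the numbers mark pairs or a batch was not tested. The fit with the replicate block called 76 lower and 112 higher genes and no member, with 4 members lower at an unadjusted P under 0.05 (2 without the block), and 0 member pairs over 6 paired differences. A permutation P over 6 values cannot fall as low as one over 12 libraries. None of the 6 pairs called over the 12 libraries changed sign over these differences.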
